A study of Homo sapiens with 18 samples.

Results

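The potassium channel genes were taken as every row, in both deposited count tables, whose symbol is KCN followed by letters and a number. The rule uses symbols only, and it found 95 of the 39368 genes in each table. By symbol stem, 30 members encode voltage-gated pore subunits, 10 modifier subunits, 8 calcium- or sodium-activated pore subunits, 16 inward rectifiers, 15 2-pore-domain channels and 16 auxiliary subunits.

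The study profiled total RNA, depleted of ribosomal RNA, from 2 human neuroblastoma lines, BE2C and Kelly, both established in culture and described in the series title as MYCN amplified. Each line carried 1 of 3 constructs: pLKO-GFP, the vector control, or 1 of 2 short hairpin RNAs against AHR, shAhR-1 and shAhR-2. The aryl hydrocarbon receptor AHR is a ligand-activated transcription factor that pairs with ARNT. There were 18 libraries, 3 to each of 6 groups, and the labels do not say whether these came from separate cultures, so p-values measure the spread between libraries, which may be technical. The 2 shRNA groups of a line share its control libraries.

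Potassium channels let potassium leave the cell and so set its resting potential and the length of each action potential. Voltage-gated pores open on depolarisation, inward rectifiers and 2-pore-domain channels hold the resting potential, and calcium- or sodium-activated pores couple potassium efflux to ions that enter during activity. Modifier subunits form no working pore alone and change the gating of voltage-gated pores, while auxiliary subunits bind pores and alter their gating or traffic. In neuroblastoma cells and in sympathetic neurons, hERG and M-type channels are known as regulators of the resting potential and excitability.

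Libraries held 32799682 to 45469353 counts, of which the potassium channel genes took 0.0735% to 0.139%. AHR itself was near the detection limit: its counts were 4, 4 and 6 in BE2C pLKO-GFP, 8, 0 and 0 with shAhR-1 and 0, 0 and 0 with shAhR-2. In Kelly its counts were 4, 26 and 29 with pLKO-GFP, 18, 11 and 22 in the libraries labelled shAhR-1 and 0, 4 and 0 with shAhR-2. In the Kelly libraries labelled shAhR-1 the AHR log2 fold change was therefore -0.10 (SE 0.54, adjusted p = 0.889), against -3.84 (SE 0.81, adjusted p = 3.41e-05) with shAhR-2, so directions drawn from the former rest on the label. AHR was too low to be tested in BE2C. MYCN was lower in all 4 comparisons, by log2 fold changes of -0.26 for shAhR-1 and -0.96 for shAhR-2 in BE2C, and of -0.99 and -0.61 in Kelly. One library stood apart: counts of BE2C shAhR-2 replicate 1 differed from the other replicates of its group with a chi-square per degree of freedom of 20.9 and 22.8, against 2.82 to 6.59 for every other replicate pair. All 9 adrenergic neuroblastoma markers were expressed in every group. They summed to 4640 to 4810 CPM, the count scaled to the size of its library, in BE2C controls, 4000 to 4040 with shAhR-1 and 2990 to 3080 with shAhR-2, and in Kelly to 8820 to 9410, 5200 to 5320 and 7210 to 7350. MYCN, 1 of these 9, made up 2230 to 2290 CPM of the sum in BE2C controls and 4440 to 4830 in Kelly controls. Of the 9, 1 rose and 6 fell in BE2C with shAhR-1, and 2 rose and 7 fell with shAhR-2. In Kelly 1 was higher and 5 lower in the libraries labelled shAhR-1, and 2 rose and 7 fell with shAhR-2. GATA2 rose with shAhR-2 by 0.47 in BE2C and 1.29 in Kelly. The shares of all genes are given below. Leukocyte markers summed to at most 1.03 CPM. Of 8 tested fibroblast markers 6 rose and 1 fell in BE2C with shAhR-2, where the list of 10 summed to 435 to 453 CPM against 177 to 178 in controls and 185 to 193 with shAhR-1, with FAP at 0 in controls and COL1A2 at 0 with shAhR-2. In Kelly that list summed to 147 to 153 CPM in controls, 100 to 110 in the libraries labelled shAhR-1 and 159 to 161 with shAhR-2. Of its 7 tested there 2 were higher and 3 lower in the libraries labelled shAhR-1. With shAhR-2 2 rose and 3 fell, and COL1A2 and FAP were at 0. The 5 smooth muscle markers summed to 5.32 to 7.72 CPM in BE2C controls, 13.1 to 14.5 with shAhR-1 and 47 to 53.3 with shAhR-2, and all 3 that were tested there rose with each shRNA. In Kelly they summed to 4.63 to 5.04, 3.3 to 5.02 and 6.51 to 7.17 CPM. The 8 Schwann and glial markers, CDH19 at 0 throughout, summed to 2.54 to 3.5 CPM in controls and 13.4 to 14.1 with shAhR-2 in BE2C, and to 3.56 to 4.22 and 9.67 to 10.1 in Kelly. With shAhR-2 the adrenergic sum was lower than in controls in both lines, and the smooth muscle, fibroblast and glial sums were higher. With shAhR-1 in BE2C the adrenergic sum was lower and the smooth muscle and fibroblast sums higher. In the Kelly libraries labelled shAhR-1 the adrenergic and fibroblast sums were lower, as was the Schwann and glial sum, at 3.1 to 3.25 CPM. The part of these lists in the results below was not tested.

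In the control libraries KCNH2, which encodes the hERG delayed rectifier, had the highest level per kilobase of exon in both lines, 33.8 ± 0.735 CPM per kb (SD, n = 3) in BE2C and 23.5 ± 0.998 in Kelly. In BE2C it was followed by KCNJ8, the pore of a vascular-type ATP-sensitive channel, at 30.8 ± 0.284 CPM per kb, and by the sodium-activated channel KCNT1 at 12.7 ± 0.107. KCNG1, a modifier of other voltage-gated pores, stood at 6.48 ± 0.0435 CPM per kb, the acid-sensitive leak channel KCNK3 at 6.10 ± 0.896 and the M-current subunit KCNQ5 at 5.23 ± 0.163. The KCNG1 and KCNK3 levels did not differ beyond their spread. In Kelly high levels after KCNH2 were those of KCNK3 at 12.4 ± 0.631, KCNJ8 at 11.1 ± 0.305, KCNH4 of the ELK branch of voltage-gated pores at 10.1 ± 0.252, and the strong inward rectifier KCNJ12 at 8.39 ± 0.294 CPM per kb. Counts of KCNJ12 are uncertain because its near-identical copy KCNJ18 was listed at 0 in every library.

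**Figure D1:**
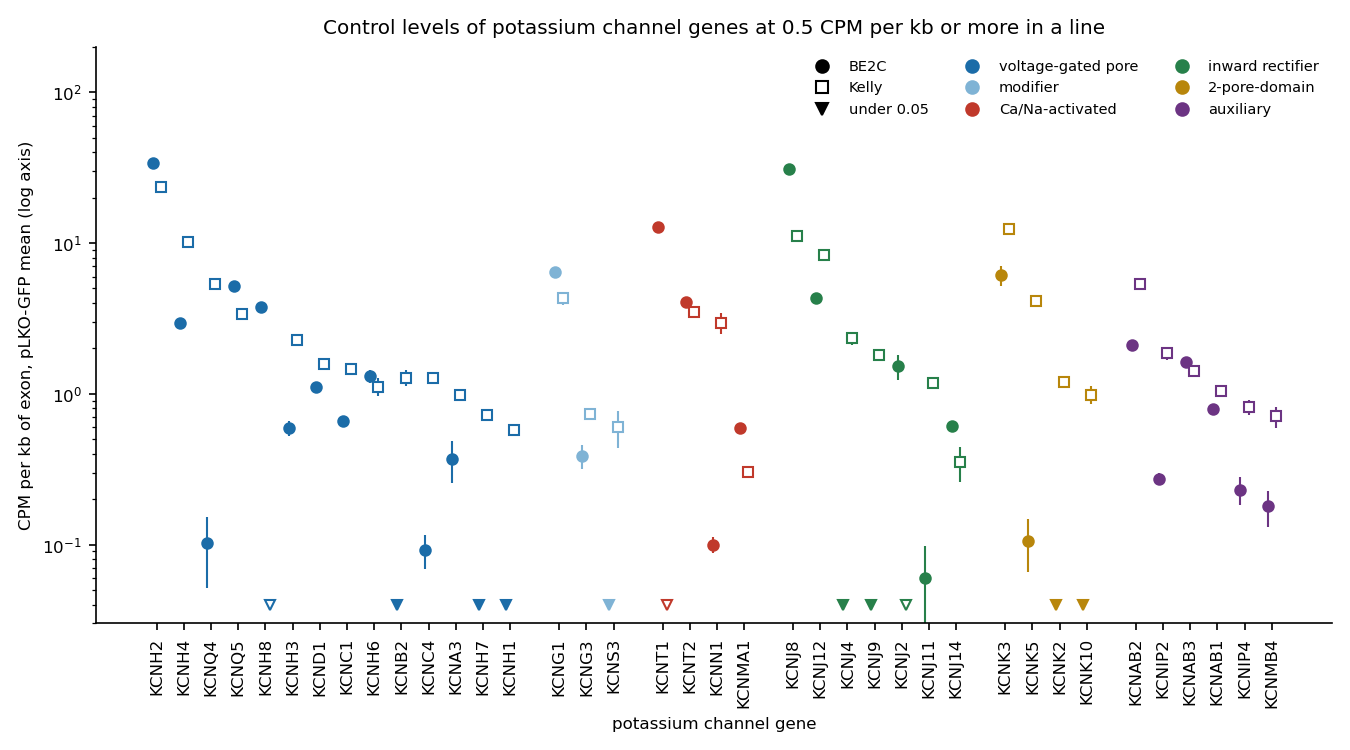
Mean CPM per kb of exon (log axis, bars SD, n = 3) in pLKO-GFP libraries for potassium channel genes at 0.5 CPM per kb or more in BE2C (filled circles) or Kelly (open squares), by class; triangles lie under 0.05. KCNH2 tops both lines at 33.8 and 23.5, and KCNT1 is at 12.7 in BE2C and under 0.05 in Kelly.

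Of the 95 members, 5 had no count in any library, 14 had none in BE2C and 9 none in Kelly. The filter on low counts passed 51 members in BE2C and 56 in Kelly, 42 of them in both lines, and 30 were tested in neither. Those 30 reached at most 23 counts in any library. The members that passed were thus the more abundant ones, and the counts of calls refer to them alone. The BE2C controls had lower levels of most channels: 44 of the 67 members tested across both lines were lower in BE2C and 15 higher, 59 in all, or 88.1% of them, where 76.2% of all genes were called and 39% were lower in BE2C (edgeR quasi-likelihood test, adjusted p under 0.05). The median log2 difference of BE2C from Kelly was -1.58 for the members and -0.03 for all genes. Of the members, 14 passed the filter in Kelly alone and 9 in BE2C alone. Most of those could differ only towards the line where they passed. The split, the share called and the median are thus partly set by the filter. All genes passed the same filter, and its part in these values was not tested.

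At the largest differences a channel had no count or few counts in the controls of 1 line. KCNJ2, a strong inward rectifier, had 9.25, 9.52 and 6.64 CPM in BE2C controls and no count in Kelly controls, which makes it at least 356-fold higher in BE2C. This and every bound below take each count as 1 fragment, and would be lower if fragments were counted more than 1 time. KCNJ15, another inward rectifier, was at least 77.2-fold higher in BE2C. KCNT1 stood at 156, 154 and 155 CPM in BE2C controls and at 0.287, 0.502 and 0.233 CPM in Kelly controls. For KCNH8, an ELK-branch pore, the BE2C controls held 23.7, 22.9 and 23.1 CPM and the Kelly controls 0.0884, 0.0478 and 0.0518 CPM. In the other direction, the G-protein-gated rectifier KCNJ9 was at 7.402, 7.49 and 7.84 CPM in Kelly controls with no count in BE2C, at least 304-fold lower there. KCNB2, a delayed rectifier pore, was at 4.18, 5.22 and 4.35 CPM in Kelly controls, again with no BE2C count, and at least 184-fold lower in BE2C. KCNH7 of the erg branch and the strong inward rectifier KCNJ4 had 3.595 ± 0.310 and 4.81 ± 0.450 CPM (SD, n = 3) in Kelly controls and 0.00845 ± 0.0146 and 0.0167 ± 0.0289 in BE2C. None of these control groups overlapped, and the line cannot be told apart from any batch that goes with its table.

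With shAhR-2 more potassium channel genes rose than fell in both lines, while with shAhR-1 the direction differed between lines. In BE2C with shAhR-1, 15 members rose and 4 fell of 51 tested, 37.3%, where 52.3% of all genes were called, 25.2% up and 27.1% down. The 4 that fell were 7.84% of the tested members, against 27.1% of all genes. In BE2C with shAhR-2, 28 rose and 10 fell, 74.5% of those tested, where 75.1% of all genes were called, 38% up and 37.2% down. Those that rose were 54.9% of the tested members, against 38% of all genes, and the medians were 0.58 for the members and 0.03 for all genes. Without the library that stood apart, 29 rose and 10 fell, and over the 34 named members the largest shift in log2 fold change was 0.29. A member could pass the filter through 1 group where it was high, as KCNA2, KCND3 and KCNF1 did in BE2C with shAhR-2. Such a member could hardly be called lower there, which holds for the counts of calls below too. All genes passed the same filter, and its part in the shares was not tested.

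In the Kelly libraries labelled shAhR-1, 20 members were higher and 22 lower of 56 tested, 75%, where 60.5% of all genes were called, 29.6% higher and 31% lower. Their median log2 fold change was 0.02, against 0.00 for all genes. With shAhR-2 in Kelly 30 rose and 18 fell, 85.7% of those tested, where 75.4% of all genes were called, 37.2% up and 38.2% down. The 30 were 53.6% of the tested members, against 37.2% of all genes, and the medians were 0.39 for the members and -0.01 for all genes. The shRNAs were also compared with each other. In BE2C 21 members were higher with shAhR-2 than with shAhR-1 and 11 lower, where 72.4% of all genes were called, 36.5% higher and 35.9% lower, and in Kelly 29 were higher and 17 lower, where 77.4% were called, 38.2% higher and 39.3% lower.

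**Figure D2:**
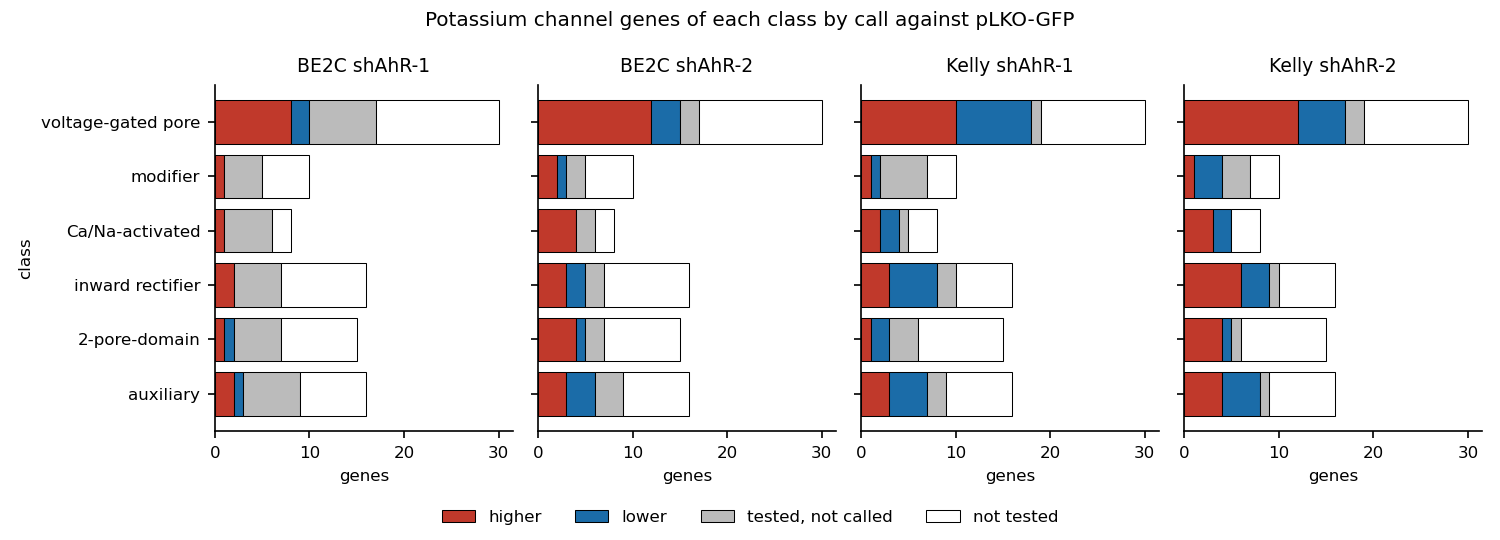
Number of potassium channel genes of each class that were higher, lower, tested but not called, or not tested, in each comparison with pLKO-GFP. Voltage-gated pores are the largest class, with 12 higher in BE2C and 12 in Kelly with shAhR-2.

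Summed over all 95 members, BE2C libraries held 790 ± 8.48 CPM (SD, n = 3) with pLKO-GFP, 837 ± 3.73 with shAhR-1 and 1301 ± 25.0 with shAhR-2. KCNH2 alone made up 25.1%, 22.6% and 47.7% of the summed counts. In Kelly the sums were 834 ± 20.4, 810 ± 8.75 and 1194 ± 26.0 CPM, of which KCNH2 made up 16.6%, 13.2% and 15.4%. The shAhR-2 groups did not overlap the controls in either line. In bulk RNA more cells with a channel and more RNA per cell cannot be told apart.

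In all 4 comparisons with pLKO-GFP, 3 of the 42 members tested in both lines were higher, 7.14% against 6.34% of all genes, and 1 was lower, 2.38% against 8.88%. The one that fell was KCNAB2, an aldo-keto-reductase-like beta subunit of Shaker-type pores, at chr1:5991466-6101193 on the plus strand of GRCh38. It had 20.5, 20.1 and 19.2 CPM in BE2C controls, 14.0, 12.4 and 12.9 with shAhR-1 and 5.87, 6.99 and 6.48 with shAhR-2. Its log2 fold changes were -0.61 (SE 0.086, adjusted p = 3.13e-07) and -1.62 (SE 0.091, adjusted p = 4.64e-17). Kelly controls held 52.3, 48.3 and 51.6 CPM, the libraries labelled shAhR-1 28.9, 29.01 and 29.1, and those with shAhR-2 45.7, 43.6 and 42.2. There the changes were -0.80 (SE 0.051, adjusted p = 1.53e-19) and -0.22 (SE 0.048, adjusted p = 7.55e-05). No shRNA group overlapped its controls, and BE2C was lowest with shAhR-2 while Kelly was lowest in the libraries labelled shAhR-1.

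Among those that rose in all 4 were KCNMB3 and KCNF1. KCNMB3, a beta subunit of the large-conductance calcium-activated channel, lies at chr3:179236691-179267002 on the minus strand. Its BE2C controls held 0.975, 0.781 and 0.812 CPM, against 2.54, 1.65 and 1.45 with shAhR-1 and 2.82, 2.13 and 2.02 with shAhR-2. The log2 fold changes were 1.14 (SE 0.27, adjusted p = 0.000675) and 1.45 (SE 0.27, adjusted p = 1.21e-05), with no overlap of groups. In Kelly it had 3.09, 3.37 and 3.599 CPM in controls, 6.41, 6.94 and 6.74 in the libraries labelled shAhR-1 and 3.57, 5.46 and 5.10 with shAhR-2, changes of 1.00 (SE 0.14, adjusted p = 1.85e-08) and 0.49 (SE 0.14, adjusted p = 0.00209). One Kelly shAhR-2 library lay within the control range. Its reads are uncertain: 37.9% of the exonic bases of KCNMB3 are shared with PIK3CA on the other strand and 9.62% with the pseudogene LRRFIP1P1, and the strand used in counting is not given. PIK3CA, the kinase gene, changed by 0.15 and 0.33 in BE2C and by 0.37 and 0.36 in Kelly. LRRFIP1P1, on the same strand as KCNMB3, rose with shAhR-1 in BE2C by 0.74 (SE 0.27, adjusted p = 0.0236) and in the Kelly libraries labelled shAhR-1 by 0.97 (SE 0.14, adjusted p = 1.68e-08). Its shAhR-2 values were 0.59 (adjusted p = 0.0539) and 0.28 (adjusted p = 0.0646), so the shAhR-1 values of both genes lie close together in Kelly, and the part of shared reads in the KCNMB3 values was not tested.

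KCNF1, a modifier subunit, stayed at or under 1.47 CPM in every library. It had no count in the BE2C controls and was at least 4.02-fold and 17.9-fold higher with shAhR-1 and shAhR-2. The former bound rests on counts of 2, 6 and 4. In Kelly it had 0.265, 0.0957 and 0.570 CPM in controls and 0.747, 1.47 and 0.824 in the libraries labelled shAhR-1. With shAhR-2 it held 0.783, 0.558 and 0.692 CPM there, which overlapped the controls.

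Promoter sequence is shown for 4 members: KCNAB2 and KCNMB3, called in 1 direction in all 4 comparisons, KCNH2, the member with the highest control level, and KCNH4, which rose with both shRNAs in BE2C and holds both motifs. Each run is the 250 bases before the gene's start, in the gene's own direction, 5′ to 3′, from RefSeq on GRCh38.p14. RefSeq's starts can differ from those of the GENCODE v29 gene spans given in the text: the KCNAB2 run lies inside its GENCODE gene and the KCNH4 run overlaps the first bases of its own. Capitals mark GCGTG, the core letters of the element that AHR and ARNT bind, on either strand (GCGTG or CACGC), and CACGTG, the E-box letters that MYC proteins bind. In KCNH4 a CACGC and a GCGTG share 2 letters.
KCNAB2 (chr1:5992426-5992675, plus strand): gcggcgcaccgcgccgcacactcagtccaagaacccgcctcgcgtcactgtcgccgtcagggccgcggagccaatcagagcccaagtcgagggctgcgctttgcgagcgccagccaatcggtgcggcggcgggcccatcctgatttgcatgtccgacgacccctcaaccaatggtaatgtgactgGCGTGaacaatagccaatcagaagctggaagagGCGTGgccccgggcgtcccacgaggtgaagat
KCNMB3 (chr3:179267051-179267300, minus strand): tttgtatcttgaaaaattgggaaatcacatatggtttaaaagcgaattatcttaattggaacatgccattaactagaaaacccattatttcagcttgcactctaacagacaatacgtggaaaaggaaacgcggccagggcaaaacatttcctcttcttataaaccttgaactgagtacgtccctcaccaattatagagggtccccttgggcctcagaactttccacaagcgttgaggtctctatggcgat
KCNH2 (chr7:150978322-150978571, minus strand): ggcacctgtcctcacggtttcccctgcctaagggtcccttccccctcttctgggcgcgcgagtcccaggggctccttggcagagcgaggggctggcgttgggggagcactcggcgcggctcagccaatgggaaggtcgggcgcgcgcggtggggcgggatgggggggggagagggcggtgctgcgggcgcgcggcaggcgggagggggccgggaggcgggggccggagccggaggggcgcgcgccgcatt
KCNH4 (chr17:42181143-42181392, minus strand): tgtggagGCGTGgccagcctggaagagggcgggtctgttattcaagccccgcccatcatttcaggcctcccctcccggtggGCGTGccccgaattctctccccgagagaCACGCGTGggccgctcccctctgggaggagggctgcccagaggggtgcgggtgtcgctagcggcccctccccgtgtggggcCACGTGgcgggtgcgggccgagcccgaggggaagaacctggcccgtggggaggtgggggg
KCNAB2 has 2 GCGTG matches, KCNH4 has 4 and 1 CACGTG, and these letters are not in the KCNMB3 and KCNH2 windows. Of the 95 members 71 matched the promoter table. GCGTG was in 20 of the 71, 28.2%, against 31.9% of all 27326 promoters of this length, and CACGTG in 3, 4.23%, against 6.47%. KCNH3 had no entry. A match is a description of letters, not a measured binding site.

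The voltage-gated pores shape the action potential, and with shAhR-2 12 of 17 tested rose and 3 fell in BE2C, and 12 of 19 rose and 5 fell in Kelly. With shAhR-1 8 rose and 2 fell in BE2C, and 10 were higher and 8 lower in the Kelly libraries so labelled. Of all genes, 38% rose and 37.2% fell in BE2C with shAhR-2 and 25.2% and 27.1% with shAhR-1, and in Kelly 37.2% and 38.2% with shAhR-2 and 29.6% and 31% in the libraries labelled shAhR-1. The counts of every class below stand beside these same shares, and the classes were not tested against them. Their summed level went from 352 ± 5.04 CPM (SD, n = 3) in BE2C controls to 385 ± 5.77 in the shAhR-1 group and 865 ± 17.1 in the shAhR-2 group, and in Kelly from 460 ± 12.6 to 457 ± 10.9 and 743 ± 20.3. The medians of their log2 fold changes in BE2C were 0.45 and 1.06 with shAhR-1 and shAhR-2, and 0.16 and 0.40 in Kelly. KCNH2 was the largest part of the BE2C sum. At chr7:150944961-150978315 on the minus strand, it had 202, 199.6 and 194 CPM in BE2C controls, 184, 193 and 191 with shAhR-1 and 609, 634 and 618 with shAhR-2. The last is a log2 fold change of 1.66 (SE 0.030, adjusted p = 1.93e-30). The change with shAhR-1 was -0.07 (SE 0.030, adjusted p = 0.0531), and it became -0.09 and was called without pLKO-GFP replicate 3, shAhR-1 replicate 2 or shAhR-1 replicate 3. With all libraries kept it was also called, at -0.07, with other size factors (RLE) and with DESeq2. In Kelly KCNH2 had 141, 131 and 142 CPM in controls, 108, 109 and 103 in the libraries labelled shAhR-1 and 187, 187 and 177 with shAhR-2. It was lower by -0.37 (SE 0.034, adjusted p = 2.05e-13) in the former and higher by 0.40 (SE 0.033, adjusted p = 9.70e-16) in the latter, with no overlap with controls.

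KCNB2, a delayed rectifier pore with no count in BE2C, moved in both directions in Kelly: 4.18, 5.22 and 4.35 CPM in controls, 21.4, 22.3 and 22.0 in the libraries labelled shAhR-1 and 2.23, 2.37 and 2.23 with shAhR-2. Those are changes of 2.26 (SE 0.10, adjusted p = 7.02e-26) and -1.01 (SE 0.13, adjusted p = 4.21e-10), with no overlap.

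Of the KCNC genes, whose pores allow fast repolarisation and high firing rates, KCNC4 and KCNC1 rose with both shRNAs in BE2C. KCNC4 had 2.7, 1.64 and 2.59 CPM in BE2C controls, 5.11, 3.99 and 3.50 with shAhR-1 and 15.2, 16.2 and 16.4 with shAhR-2, changes of 0.87 (SE 0.16, adjusted p = 2.70e-05) and 2.80 (SE 0.14, adjusted p = 4.19e-18). In Kelly it was at 31.1, 32.6 and 32.4 CPM in controls, 20.3, 21.6 and 21.6 in the libraries labelled shAhR-1 and 64.6, 61.7 and 65.1 with shAhR-2, changes of -0.59 (SE 0.055) and 0.99 (SE 0.049). No shRNA group overlapped its controls. KCNC1 rose in BE2C from 9.78, 9.03 and 9.66 CPM to 14.1, 17.1 and 13.6 with one shRNA and 17.8, 19.0 and 16.5 with the other, shAhR-2, by 0.65 (SE 0.094) and 0.92 (SE 0.092). In Kelly KCNC1 was higher in the libraries labelled shAhR-1, by 0.61 (SE 0.064), with a shAhR-2 value of 0.00 (SE 0.065, adjusted p = 0.958) and overlapping groups.

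KCND genes encode the pores of the transient A-type current, which delays firing. KCND1 had 6.05, 6.69 and 6.54 CPM in BE2C controls, 7.81, 6.90 and 8.18 with shAhR-1 and 20.9, 20.5 and 19.7 with shAhR-2, and rose by 1.67 (SE 0.094, adjusted p = 3.88e-17) with shAhR-2. Its change of 0.25 (SE 0.10, adjusted p = 0.0396) with shAhR-1 was lost, at 0.19 to 0.26, without pLKO-GFP replicate 1 or 3 or shAhR-1 replicate 1 or 3. That call was also lost with no filter beyond a total count above 0, halved counts or only the 2 groups fitted. In Kelly KCND1 fell: 9.24, 8.90 and 9.48 CPM in controls, 2.38, 2.34 and 2.76 in the libraries labelled shAhR-1 and 7.24, 7.09 and 6.77 with shAhR-2, changes of -1.87 (SE 0.13, adjusted p = 1.37e-18) and -0.39 (SE 0.11, adjusted p = 0.00109). KCND3 was near absent from BE2C controls, at 0, 0.195 and 0 CPM, and reached 2.45, 3.00 and 2.55 with shAhR-2, a change of 5.28 (SE 0.59, adjusted p = 1.23e-09). With shAhR-1 it held 0, 0.162 and 0.3003 CPM, a change of 1.15 (SE 0.87, adjusted p = 0.282) that became 5.68 and was called without pLKO-GFP replicate 2, the control library with counts. In Kelly it went from 1.24, 1.53 and 1.76 CPM to 9.32, 9.39 and 8.67 with shAhR-2, a rise of 2.59 (SE 0.15, adjusted p = 3.75e-21). The value of -0.47 (SE 0.20, adjusted p = 0.0387) in the Kelly libraries labelled shAhR-1 was -0.35 to -0.49 and no longer called without any 1 of those 3 libraries or of pLKO-GFP replicates 2 and 3. It was also not called with no filter beyond a total count above 0, halved counts or only the 2 groups fitted.

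**Figure D3:**
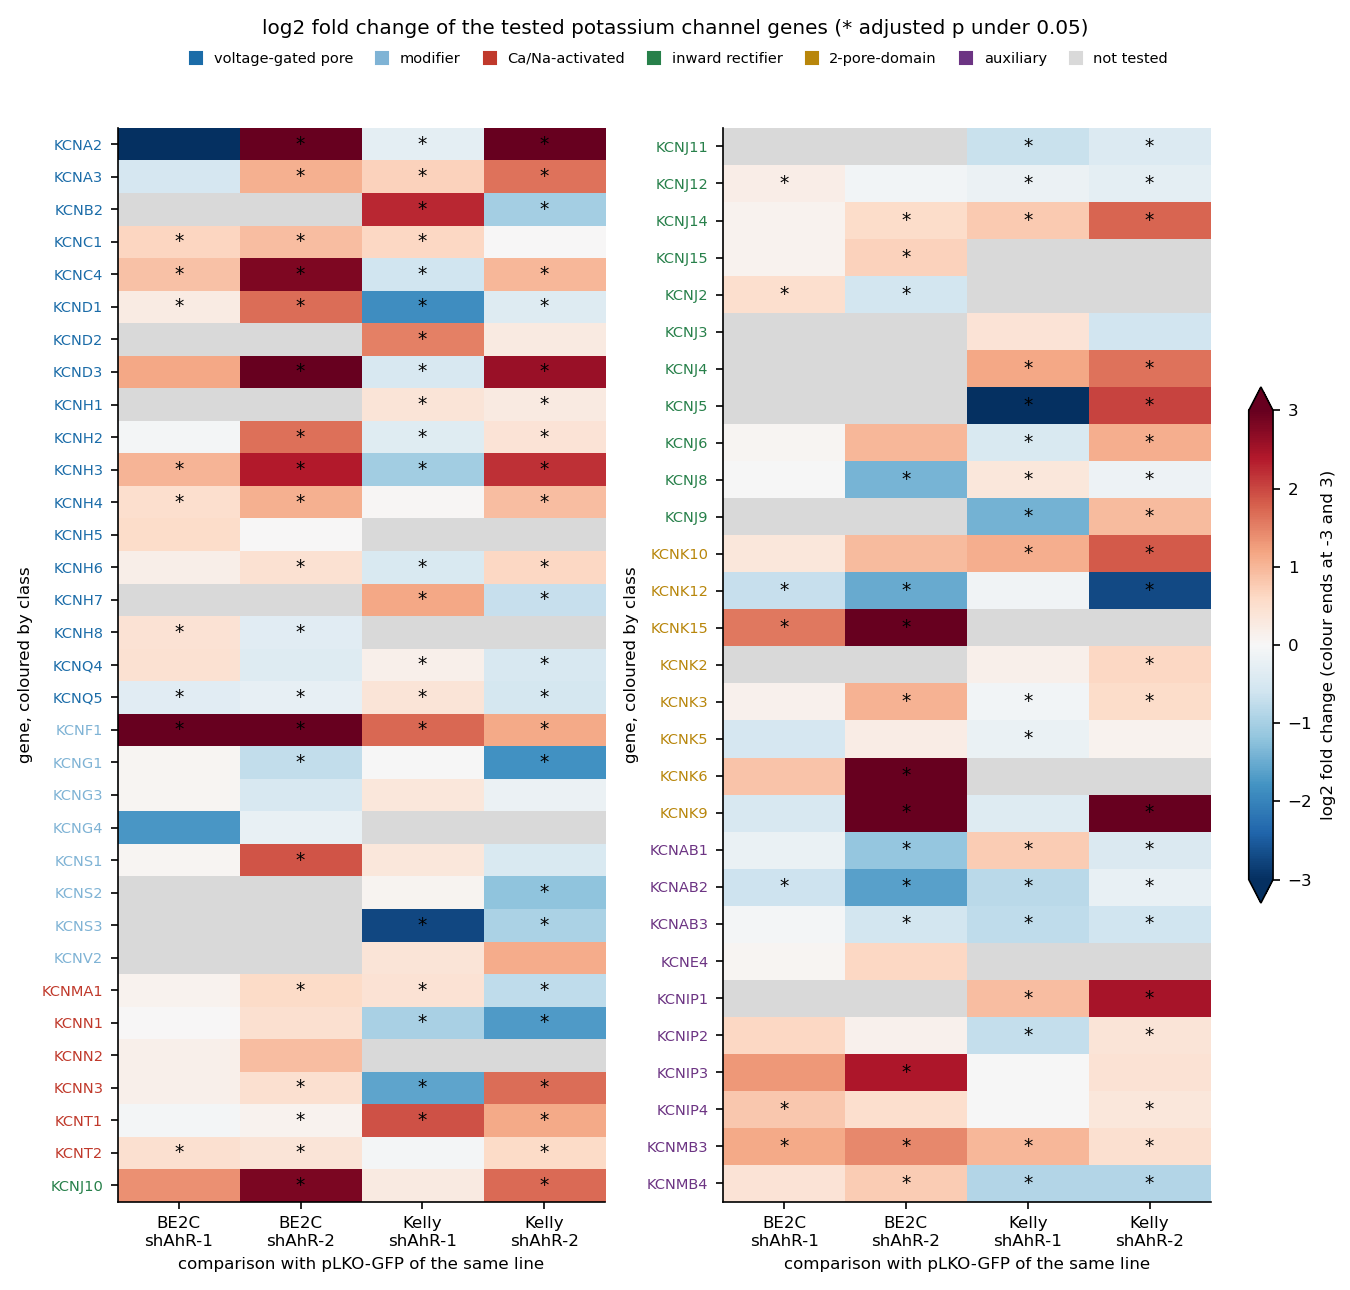
log2 fold change against pLKO-GFP for potassium channel genes tested in at least 1 line, by class; stars mark an adjusted p under 0.05 and grey cells were not tested. The deep cells of KCNF1 in BE2C, KCNA2 in BE2C shAhR-1 and KCNJ5 in the Kelly libraries labelled shAhR-1 come from groups without a count, so their colour has no set size; KCNAB2 is blue in all 4 columns.

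Further KCNH genes moved in both directions. KCNH3, an ELK-branch pore, had 2.92, 2.42 and 2.41 CPM in BE2C controls, 4.78, 4.91 and 6.11 with shAhR-1 and 14.2, 12.4 and 13.8 with shAhR-2, rising by 1.02 (SE 0.14, adjusted p = 1.31e-07) and 2.39 (SE 0.13, adjusted p = 1.14e-17). Kelly controls held 10.4, 9.55 and 9.48 CPM, libraries labelled shAhR-1 5.34, 4.81 and 4.17 and those with shAhR-2 46.2, 46.3 and 43.7, changes of -1.04 (SE 0.091, adjusted p = 2.15e-14) and 2.20 (SE 0.071, adjusted p = 2.92e-32). No group overlapped another. KCNH4 went from 11.5 ± 0.411 CPM (SD, n = 3) in BE2C controls to 16.4 ± 0.391 and 23.9 ± 1.74, rises of 0.51 (SE 0.080) and 1.06 (SE 0.078). In Kelly it rose from 39.7 ± 0.990 to 75.7 ± 2.42 CPM with shAhR-2, by 0.92 (SE 0.047), and had a value of 0.04 (SE 0.049, adjusted p = 0.485) with overlapping groups in the libraries labelled shAhR-1. KCNH8, expressed in BE2C, was at 23.2 ± 0.421 CPM in controls, 31.4 ± 0.850 with shAhR-1 and 18.3 ± 1.59 with shAhR-2, changes of 0.44 (SE 0.067) and -0.33 (SE 0.069). KCNH1, the founding EAG-branch pore, was tested in Kelly alone, where it went from 5.62 ± 0.204 to 7.32 ± 0.414 and 6.85 ± 0.649 CPM. Its changes were 0.38 (SE 0.12) and 0.28 (SE 0.11, adjusted p = 0.0257), and the second was lost, at 0.20 to 0.27, without pLKO-GFP replicate 1 or 2 or shAhR-2 replicate 3. KCNH7 was higher by 1.15 (SE 0.14) in the Kelly libraries labelled shAhR-1 and fell by 0.68 on the log2 scale (SE 0.15) with shAhR-2.

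The Shaker-type gene KCNA2 was singled out after its values were seen. In Kelly it went from 6.63, 7.66 and 7.72 CPM in controls to 71.2, 71.4 and 66.6 with shAhR-2, by 3.25 (SE 0.073, adjusted p = 3.42e-39). The Kelly libraries labelled shAhR-1 held 4.71, 6.73 and 6.26 CPM and overlapped the controls. Their value of -0.30 (SE 0.095, adjusted p = 0.00577) became -0.17 and was no longer called without shAhR-1 replicate 1. In BE2C it was at 0.1, 0.0488 and 0 CPM in controls, 0 in each shAhR-1 library and 0.792, 0.444 and 0.515 with shAhR-2, a rise of 3.48 (SE 0.73, adjusted p = 8.77e-05) that was 3.19 without the library that stood apart. KCNA3, a pore best known from lymphocytes, rose in Kelly from 2.58, 2.27 and 2.69 CPM to 4.05, 3.84 and 4.15 and to 6.82, 8.53 and 8.24, by 0.68 (SE 0.15) in the libraries labelled shAhR-1 and 1.64 (SE 0.14) with shAhR-2. In BE2C it was 0.951 ± 0.293 CPM (SD, n = 3) in controls and 1.99 ± 0.408 with shAhR-2, a rise of 1.07 (SE 0.30, adjusted p = 0.00176). With shAhR-1 it was 0.674 ± 0.181 CPM, a value of -0.51 (SE 0.33, adjusted p = 0.207) with overlapping groups.

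KCNQ genes encode M-current pores. KCNQ5 was lower with both shRNAs in BE2C, with 38.2, 40.6 and 39.9 CPM in controls, 30.9, 32.4 and 31.4 with shAhR-1 and 34.8, 31.9 and 32.4 with shAhR-2. These are changes of -0.33 (SE 0.056, adjusted p = 7.71e-06) and -0.25 (SE 0.056, adjusted p = 0.000153), and no shRNA library reached the controls. In Kelly its controls held 25.4, 24.1 and 26.9 CPM, the libraries labelled shAhR-1 34.8, 32.4 and 31.7 and those with shAhR-2 17.0, 18.01 and 18.3, changes of 0.38 (SE 0.061) and -0.53 (SE 0.064).

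**Figure D4:**
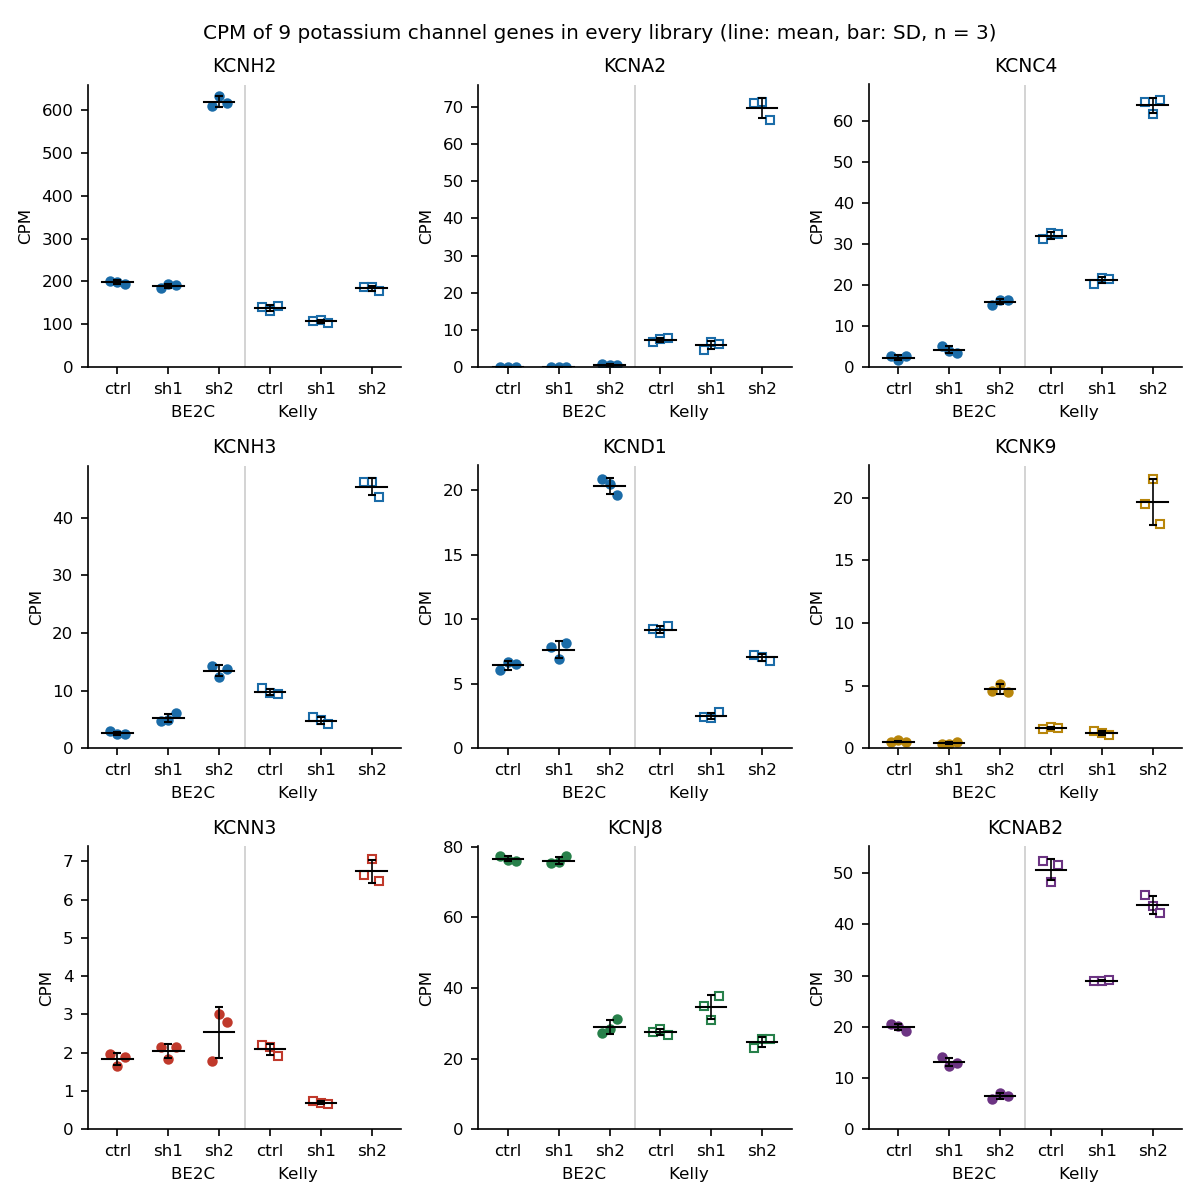
CPM in every library for 9 potassium channel genes (points; line and bar, mean and SD, n = 3), with ctrl for pLKO-GFP, sh1 for shAhR-1 and sh2 for shAhR-2; BE2C filled, Kelly open. KCNH2 reaches 609 to 634 CPM in BE2C shAhR-2, KCNA2 66.6 to 71.4 in Kelly shAhR-2, and KCNAB2 lies under its controls in every shRNA group.

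Among modifier subunits the summed level went with shAhR-2 from 37.5 ± 0.388 CPM (SD, n = 3) to 23.9 ± 1.70 in BE2C and from 30.1 ± 2.63 to 12.1 ± 0.822 in Kelly, most of it KCNG1. KCNG1 had 35.4, 35.0 and 35.2 CPM in BE2C controls, 36.5, 38.0 and 35.0 with shAhR-1 and 19.7, 20.8 and 22.5 with shAhR-2, a fall with shAhR-2 of -0.74 (SE 0.062, adjusted p = 1.21e-12). In Kelly it had 25.5, 21.0 and 23.7 CPM in controls, 22.5, 22.3 and 24.4 in the libraries labelled shAhR-1 and 7.12, 6.37 and 6.62 with shAhR-2, which is -1.81 (SE 0.082, adjusted p = 4.61e-26). Values with shAhR-1 were 0.05 (SE 0.060, adjusted p = 0.523) and -0.02 (SE 0.072, adjusted p = 0.841), with overlapping groups in both lines. KCNS3, another modifier subunit, held at most 0.293 CPM in any BE2C library. In Kelly it fell from 1.90, 1.36 and 2.38 CPM to 0.172, 0.368 and 0.291 in the libraries labelled shAhR-1 and 1.08, 0.883 and 0.995 with shAhR-2. Its changes were -2.73 (SE 0.35, adjusted p = 1.34e-09) and -0.94 (SE 0.28, adjusted p = 0.00263). Of the 5 modifiers tested in BE2C 1 rose with shAhR-1, and 2 rose and 1 fell with shAhR-2. Of the 7 tested in Kelly 1 was higher and 1 lower in the libraries labelled shAhR-1, and 1 rose and 3 fell with shAhR-2.

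Calcium- and sodium-activated pores end bursts of firing. In BE2C 1 of 6 tested rose with shAhR-1 and 4 rose with shAhR-2. Of the 5 tested in Kelly 2 were higher and 2 lower in the libraries labelled shAhR-1, and 3 rose and 2 fell with shAhR-2. KCNT2, a sodium-activated pore, had 27.5, 30.2 and 28.7 CPM in BE2C controls, 40.1, 39.5 and 40.7 with shAhR-1 and 34.8, 38.6 and 38.2 with shAhR-2, rises of 0.48 (SE 0.058, adjusted p = 1.85e-08) and 0.38 (SE 0.058, adjusted p = 4.99e-07). In Kelly it rose from 24.9 ± 1.27 CPM (SD, n = 3) to 37.4 ± 0.796 with shAhR-2, by 0.58 (SE 0.057). The value in the libraries labelled shAhR-1 was -0.07 (SE 0.060, adjusted p = 0.329). Its relative KCNT1, abundant in BE2C, held 149 ± 4.99 CPM there with shAhR-1 and 165 ± 1.69 with shAhR-2, against 155 ± 1.31 in controls. The shAhR-2 rise was 0.10 (SE 0.033, adjusted p = 0.00556). The shAhR-1 value of -0.05 (SE 0.034, adjusted p = 0.186) was -0.09 and called without shAhR-1 replicate 1.

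KCNN1 and KCNN3 encode small-conductance calcium-activated pores, which contribute to the afterhyperpolarisation that follows a spike. KCNN1 fell in Kelly from 12.9, 9.67 and 12.8 CPM to 6.06, 6.15 and 5.72 in the libraries labelled shAhR-1 and 4.38, 2.74 and 3.72 with shAhR-2, by -0.97 (SE 0.12, adjusted p = 1.14e-09) and -1.71 (SE 0.13, adjusted p = 3.11e-17). In BE2C it was at 0.398 ± 0.0480 CPM (SD, n = 3) in controls and was not called with either shRNA. KCNN3 had 2.19, 2.15 and 1.92 CPM in Kelly controls, 0.747, 0.683 and 0.655 in the libraries labelled shAhR-1 and 6.65, 7.07 and 6.49 with shAhR-2. It was lower by -1.58 (SE 0.21, adjusted p = 6.21e-09) in the former and higher by 1.68 (SE 0.16, adjusted p = 8.70e-14) in the latter, with no overlap. In BE2C its shAhR-2 libraries held 1.77, 3.02 and 2.79 CPM and overlapped the controls at 1.95, 1.66 and 1.88. Its call there (0.48, SE 0.22, adjusted p = 0.0472) was lost, at 0.33 to 0.52, without any 1 control library or shAhR-2 replicate 2 or 3, and was 0.67 without shAhR-2 replicate 1, the library that stood apart. That call was also lost with DESeq2, a replicate block, no filter beyond a total count above 0 or only the 2 groups fitted. KCNMA1, the pore of the large-conductance channel, rose with shAhR-2 in BE2C from 21.3 ± 0.860 to 31.5 ± 0.622 CPM, by 0.58 (SE 0.065). In Kelly it fell with shAhR-2 from 10.8 ± 0.609 to 6.44 ± 0.492 CPM, by 0.76 on the log2 scale (SE 0.095), and was 0.43 (SE 0.088) higher in the libraries labelled shAhR-1.

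Inward rectifiers pass current best near the resting potential. Their sum went in BE2C with shAhR-2 from 114 ± 2.30 CPM (SD, n = 3) to 65.4 ± 2.65, and was 119 ± 1.63 against 101 ± 3.14 in Kelly. The largest part of the BE2C sum was KCNJ8, whose controls held 77.4, 76.3 and 76.1 CPM, with 75.3, 75.7 and 77.3 for shAhR-1 and 27.2, 28.4 and 31.2 for shAhR-2, a fall of -1.39 (SE 0.049, adjusted p = 9.24e-23). The shAhR-1 value was -0.01 (SE 0.046, adjusted p = 0.86). In Kelly KCNJ8 held 27.6, 28.3 and 26.7 CPM in controls, 35.0, 31.0 and 37.7 in the libraries labelled shAhR-1 and 23.0, 25.6 and 25.5 with shAhR-2. It was 0.33 (SE 0.062, adjusted p = 6.69e-06) higher in the former. The shAhR-2 value of -0.16 (SE 0.063, adjusted p = 0.0188) was -0.15 and -0.11, and not called, without pLKO-GFP replicate 2 and without shAhR-2 replicate 1. It was also not called with DESeq2, at -0.14, or with a filter of a mean CPM of at least 1, at -0.13. ABCC9, the sulfonylurea receptor that partners KCNJ8, fell with shAhR-2 by 3.33 on the log2 scale (SE 0.16) in BE2C and by 2.25 (SE 0.37) in Kelly. The other sulfonylurea receptor gene, ABCC8, moved in both directions in Kelly. Its changes were -0.43 (SE 0.09) in the libraries labelled shAhR-1 and 0.75 (SE 0.082) with shAhR-2. KCNJ11, the other ATP-sensitive pore, fell in Kelly from 3.76 ± 0.253 CPM to 2.37 ± 0.563 in the libraries labelled shAhR-1, by -0.66 (SE 0.18, adjusted p = 0.00118). With shAhR-2 it held 2.83 ± 0.295 CPM, a change of -0.42 (SE 0.17, adjusted p = 0.0243) that was lost, at -0.41 to -0.35, without pLKO-GFP replicate 1 or 2 or shAhR-2 replicate 1 or 3.

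Of the strong inward rectifiers, KCNJ4 was tested in Kelly alone, KCNJ2 in BE2C alone and KCNJ12 in both lines. KCNJ4 rose in Kelly from 4.71, 4.43 and 5.31 CPM to 10.5, 11.1 and 10.3 in the libraries labelled shAhR-1 and 14.9, 15.0 and 15.1 with shAhR-2, by 1.15 (SE 0.10, adjusted p = 1.82e-14) and 1.64 (SE 0.097, adjusted p = 3.26e-21). KCNJ2 had 11.6, 13.0 and 11.6 CPM with shAhR-1 in BE2C and 6.06, 5.19 and 6.05 with shAhR-2, against the controls given above. It rose by 0.50 (SE 0.12, adjusted p = 0.000448) with shAhR-1 and fell by 0.54 on the log2 scale (SE 0.12, adjusted p = 0.000177) with shAhR-2, and neither group overlapped the controls. KCNJ12 fell in Kelly from 48.3, 47.9 and 45.2 CPM to 44.4, 39.3 and 41.1 in the libraries labelled shAhR-1 and 39.9, 38.7 and 37.1 with shAhR-2, by -0.18 (SE 0.051) and -0.30 (SE 0.050). Its BE2C shAhR-1 value of 0.20 (SE 0.065, adjusted p = 0.00987) was 0.17 and not called without shAhR-1 replicate 2. KCNJ14 went in Kelly from 1.53 ± 0.396 CPM (SD, n = 3) to 2.62 ± 0.552 in the libraries labelled shAhR-1 and 5.17 ± 0.539 with shAhR-2, by 0.78 (SE 0.20) and 1.74 (SE 0.18). In BE2C it rose with shAhR-2 by 0.55 (SE 0.17), a value of 0.42 and not called without shAhR-2 replicate 3. KCNJ14 shares 8.06% of its exonic bases with GRWD1 on the same strand, which fell with shAhR-2 by 0.58 on the log2 scale in BE2C and 0.30 in Kelly.

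KCNJ9, KCNJ6 and KCNJ5 are G-protein-gated rectifiers, which neurotransmitter receptors open. KCNJ9 had 3.28, 3.02 and 2.23 CPM in the Kelly libraries labelled shAhR-1 and 13.8, 15.0 and 14.9 with shAhR-2, against controls of 7.402 to 7.84. The changes were -1.42 (SE 0.12, adjusted p = 1.50e-14) and 0.94 (SE 0.10, adjusted p = 7.23e-12), and the 3 groups did not overlap. KCNJ6 went the same ways, from 7.79 ± 1.11 CPM (SD, n = 3) to 5.71 ± 0.570 and 16.8 ± 0.550, by -0.45 (SE 0.11) and 1.10 (SE 0.095). KCNJ5 held at most 0.581 CPM in any library, with no count in the Kelly libraries labelled shAhR-1, at least 4.84-fold lower than in controls. Over the class, 2 of 7 tested in BE2C rose with shAhR-1, and 3 rose and 2 fell with shAhR-2. In Kelly 3 of 10 were higher and 5 lower in the libraries labelled shAhR-1, and 6 rose and 3 fell with shAhR-2.

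The 2-pore-domain genes encode leak channels, and their sum was 41.7 ± 4.87 CPM (SD, n = 3) in BE2C controls, 44.6 ± 1.53 with shAhR-1 and 88.3 ± 2.09 with shAhR-2. In Kelly it was 110 ± 2.96, 112 ± 2.75 and 187 ± 3.47. KCNK3 made up most of both. It had 43.4, 32.2 and 38.4 CPM in BE2C controls, 41.1, 39.9 and 42.5 with shAhR-1 and 75.8, 77.8 and 78.2 with shAhR-2, a rise of 1.04 (SE 0.062, adjusted p = 2.17e-16). The shAhR-1 value of 0.12 (SE 0.064, adjusted p = 0.137) was 0.22 and called without pLKO-GFP replicate 1. In Kelly it held 81.5, 76.7 and 73.7 CPM in controls, 72.3, 72.5 and 72.1 in the libraries labelled shAhR-1 and 113 in each of the 3 shAhR-2 libraries, a rise of 0.54 (SE 0.037, adjusted p = 7.19e-19). Its value of -0.09 (SE 0.038, adjusted p = 0.0311) in the former was -0.10 to -0.05 and not called without pLKO-GFP replicate 1 or any 1 of those 3 libraries. It was also not called with only the 2 groups fitted.

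KCNK9, a close relative of KCNK3 singled out after its values were seen, had 0.475, 0.610 and 0.482 CPM in BE2C controls, 0.327, 0.324 and 0.475 with shAhR-1 and 4.57, 5.15 and 4.46 with shAhR-2, a rise of 3.18 (SE 0.24, adjusted p = 1.34e-13). Kelly controls held 1.52, 1.67 and 1.61 CPM, the libraries labelled shAhR-1 1.38, 1.23 and 1.07 and those with shAhR-2 19.5, 21.5 and 17.9, a rise of 3.61 (SE 0.12, adjusted p = 3.77e-31). With shAhR-1 its values were -0.48 (SE 0.33, adjusted p = 0.228) and -0.39 (SE 0.18, adjusted p = 0.0583), and the second was -0.47 and called without Kelly shAhR-1 replicate 1. KCNK10, a mechanosensitive TREK-type channel, rose in Kelly from 7.38, 9.45 and 7.64 CPM to 16.9, 16.4 and 18.8 in the libraries labelled shAhR-1 and 28.4, 31.0 and 29.5 with shAhR-2, by 1.10 (SE 0.084, adjusted p = 1.75e-16) and 1.85 (SE 0.080, adjusted p = 7.66e-27). KCNK12, a halothane-inhibited type of channel, fell with shAhR-2 in both lines, from 1.27, 2.54 and 2.00 CPM to 0.652, 0.577 and 0.772 in BE2C and from 1.70, 1.48 and 1.84 to 0.293, 0.232 and 0.238 in Kelly. These are -1.52 (SE 0.30, adjusted p = 3.65e-05) and -2.71 (SE 0.33, adjusted p = 3.75e-10). Its BE2C shAhR-1 groups overlapped, and that call (-0.70, SE 0.29, adjusted p = 0.0424) was lost, at -0.71 to -0.45, without pLKO-GFP replicate 2 or 3 or shAhR-1 replicate 2 or 3. A replicate block also lost it, at -0.67. Of the 7 class members tested in BE2C 1 rose and 1 fell with shAhR-1, and 4 rose and 1 fell with shAhR-2. Of the 6 tested in Kelly 1 was higher and 2 lower in the libraries labelled shAhR-1, and 4 rose and 1 fell with shAhR-2.

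The auxiliary subunits tune gating and traffic of the pores. Of 9 tested in each line, 2 rose and 1 fell in BE2C with shAhR-1 and 3 rose and 3 fell with shAhR-2. In Kelly 3 were higher and 4 lower in the libraries labelled shAhR-1, and 4 rose and 4 fell with shAhR-2. Their sum went in BE2C from 37.1 ± 0.937 CPM (SD, n = 3) to 32.0 ± 2.44 and 21.3 ± 1.69, and in Kelly from 83.5 ± 3.12 to 63.9 ± 0.921 and 78.2 ± 1.65. Like KCNAB2, the beta subunits KCNAB1 and KCNAB3 fell with shAhR-2 in both lines. KCNAB1 went from 5.42 ± 0.442 to 2.41 ± 0.308 CPM in BE2C, a change of -1.15 (SE 0.15), and from 7.13 ± 0.493 to 5.26 ± 0.238 in Kelly, a change of -0.44 (SE 0.11). It was 0.76 (SE 0.10) higher in the Kelly libraries labelled shAhR-1. KCNAB3 fell by 0.56 on the log2 scale (SE 0.13) in BE2C with shAhR-2, and in Kelly from 6.56, 6.12 and 6.78 CPM to 3.39, 3.55 and 4.41 in the libraries labelled shAhR-1 and 3.596, 4.44 and 4.95 with shAhR-2, changes of -0.77 (SE 0.14) and -0.59 (SE 0.13).

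KChIP genes encode calcium sensors that bind KCND pores. KCNIP1 had no count in BE2C and went in Kelly from 0.354, 0.479 and 0.673 CPM to 2.64, 3.02 and 2.64 with shAhR-2, a rise of 2.47 (SE 0.28, adjusted p = 2.68e-11). The libraries labelled shAhR-1 held 0.862, 1.21 and 0.776 CPM, and their value of 0.93 (SE 0.31, adjusted p = 0.00829) was 0.73 and 0.72, and not called, without pLKO-GFP replicate 1 and without shAhR-1 replicate 2. KCNIP3 rose with shAhR-2 in BE2C from 0.0992 ± 0.1 to 0.539 ± 0.173 CPM (SD, n = 3), by 2.42 (SE 0.65, adjusted p = 0.00118), or 2.63 without the library that stood apart. Its BE2C shAhR-1 value of 1.30 (SE 0.71, adjusted p = 0.123) was 2.27 and called without pLKO-GFP replicate 1, and its Kelly shAhR-2 value of 0.43 (SE 0.22, adjusted p = 0.0732) was 0.57 and called without shAhR-2 replicate 3. The latter was also called, at 0.46, with a filter of a mean CPM of at least 1. KCNMB4, the neuronal beta subunit of the large-conductance channel, fell in Kelly from 3.46 ± 0.551 CPM to 1.87 ± 0.320 in the libraries labelled shAhR-1 and 1.88 ± 0.347 with shAhR-2, by -0.88 (SE 0.20) and -0.89 (SE 0.19). In BE2C its shAhR-2 value of 0.77 (SE 0.29, adjusted p = 0.0174) was 0.56 and 0.70, and not called, without pLKO-GFP replicate 2 and without shAhR-2 replicate 3.

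Counting members called in 1 direction with both shRNAs, 10 rose in BE2C, 19.6% of those tested against 14.6% of all genes, and 3 fell, 5.88% against 17.4%. The latter were KCNAB2, KCNQ5 and KCNK12. In Kelly 11 were higher, 19.6% against 12.9%, and 8 lower, 14.3% against 14.3%. Both counts rest on comparisons with shared control libraries.

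The lines have separate controls, and with shAhR-2 the channels moved mostly alike in both. Of the 42 members tested in both lines 19 rose in both, 45.2% against 25% of all genes, 7 fell in both, 16.7% against 28%, and 4 were called in opposite directions, 9.52% against 10.4%. Among the 30 members called in both lines 86.7% had the same direction, close to the 83.6% of all genes called in both. Among those that rose were KCNA2, KCNA3, KCNC4, KCND3, KCNF1, KCNH2, KCNH3, KCNH4, KCNH6, KCNJ10, KCNJ14, KCNK3, KCNK9, KCNMB3, KCNN3, KCNT1 and KCNT2. Those that fell were the beta subunits KCNAB1, KCNAB2 and KCNAB3 with KCNG1, KCNJ8, KCNK12 and KCNQ5. The BE2C calls of KCNJ14 and KCNN3 and the Kelly call of KCNJ8 were lost under some alternatives, as given above. KCNA2, KCND3, KCNF1 and KCNJ10 passed the filter in BE2C through the shAhR-2 group, so a fall there could hardly be called. With shAhR-1 5 rose in both lines, 11.9% against 16.1%, 2 fell in both, 4.76% against 19.2%, and 5 were called in opposite directions, 11.9% against 5.55%. The same direction was thus shared by 7 of the 12 called in both lines, 58.3%, against 86.4% of all genes. The 5 were KCNC4, KCND1, KCNH3, KCNJ12 and KCNQ5, and the Kelly side rests on the libraries labelled shAhR-1.

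**Figure D5:**
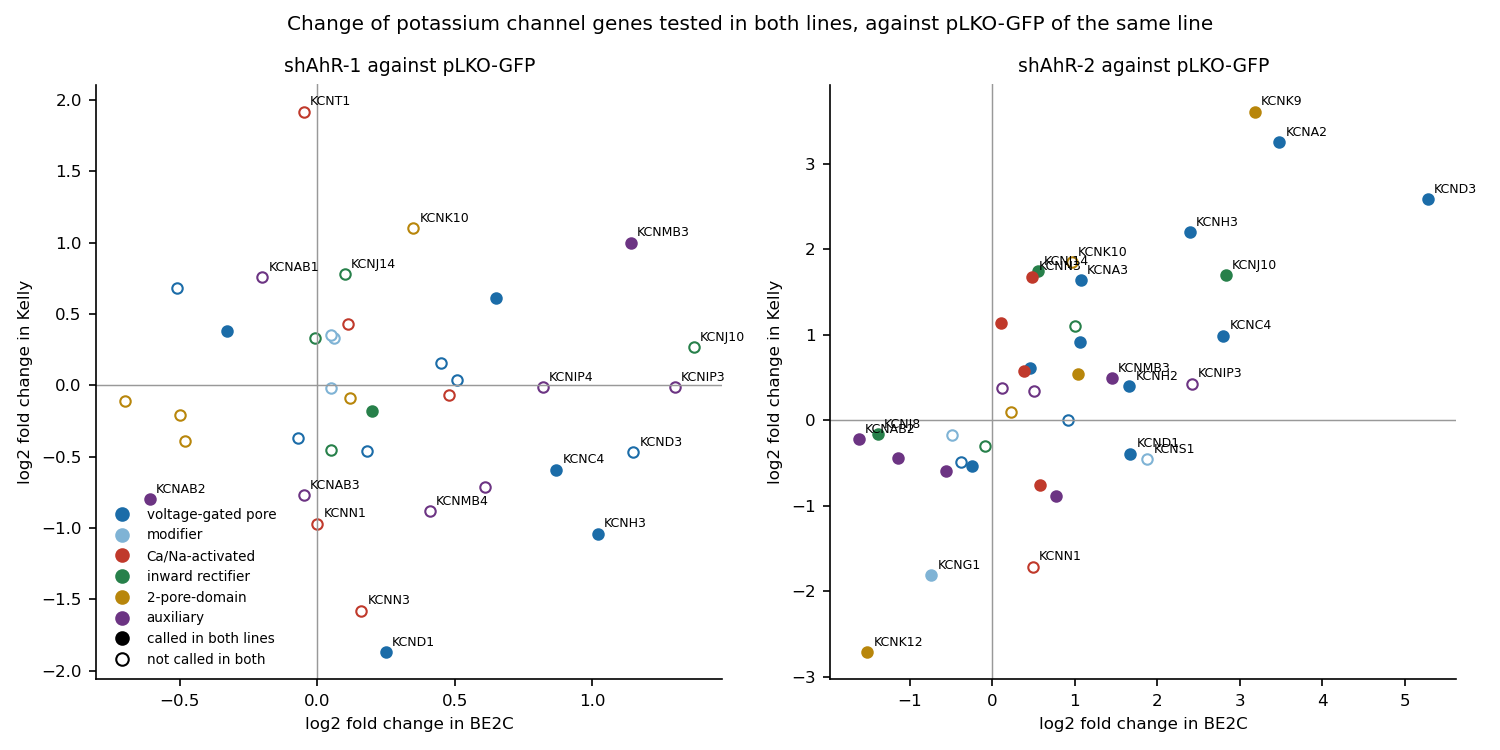
log2 fold change in BE2C (x axis) and Kelly (y axis) for potassium channel genes tested in both lines and reported here, with shAhR-1 (left) and shAhR-2 (right); filled points were called in both lines. KCNF1, and KCNA2 on the left, are not drawn because a BE2C group had no count. On the right KCNK9, KCNA2 and KCND3 lie highest, all called in both lines.

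The difference between lines was tested itself, as the BE2C change less the Kelly change in 1 fit of all 18 libraries. With shAhR-1 18 of 67 members had a more positive change in BE2C and 6 a more negative one, 35.8%, where 35.7% of all genes were called. By direction these were 26.9% and 8.96% of the members, against 17.5% and 18.2% of all genes. Among the members called, the most positive differences were those of KCND1 at 2.13 (SE 0.16, adjusted p = 1.37e-15), KCNH3 at 2.07 (SE 0.16, adjusted p = 1.08e-14), KCNN3 at 1.75 (SE 0.31, adjusted p = 7.76e-06) and KCNC4 at 1.47 (SE 0.15, adjusted p = 6.28e-11). The most negative among them were KCNT1 at -1.95 (SE 0.24, adjusted p = 5.37e-09), KCNA3 at -1.18 (SE 0.32, adjusted p = 0.00302), KCNAB1 at -0.96 (SE 0.17, adjusted p = 1.2e-05) and KCNQ5 at -0.70 (SE 0.083, adjusted p = 1.92e-09). KCNT1 is at under 2 CPM in every Kelly library.

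With shAhR-2 19 members had a more positive change in BE2C and 10 a more negative one, 43.3%, where 54.7% of all genes were called. By direction these were 28.4% and 14.9% of the members, against 28.8% and 25.8% of all genes. Among called members with a mean of at least 1 CPM over the 18 libraries, the most positive were KCND3 at 2.66 (SE 0.60, adjusted p = 0.000156), KCNN1 at 2.18 (SE 0.35, adjusted p = 6.95e-07), KCND1 at 2.05 (SE 0.14, adjusted p = 1.2e-17) and KCNIP3 at 1.97 (SE 0.60, adjusted p = 0.00479). KCNF1, KCNK15 and KCNS1, below that mean, were called in the same direction with fitted values larger than some of these. The KCNF1 value has no set size, as its BE2C controls held no count. Among the most negative were KCNH8 at -1.83 (SE 0.54, adjusted p = 0.00317), KCNAB2 at -1.42 (SE 0.095, adjusted p = 7.01e-18) and KCNJ8 at -1.25 (SE 0.082, adjusted p = 3.90e-18). KCNH2 differed too, by 1.23 (SE 0.046, adjusted p = 2.80e-27): it rose in both lines, and by more in BE2C.

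Other genes of membrane excitability were read from 2 lists. Of 23 pore genes of other voltage-gated cation channels (sodium, calcium and HCN), 9 of 19 tested rose and 1 fell in BE2C with shAhR-1, and 13 rose and 2 fell with shAhR-2, with medians of 0.51 and 1.29. In Kelly 7 of 17 were higher and 4 lower in the libraries labelled shAhR-1, and 14 rose and 3 fell with shAhR-2, with medians of 0.14 and 1.03. Of all genes, 25.2% and 38% rose in BE2C with shAhR-1 and shAhR-2, and 27.1% and 37.2% fell. In Kelly 29.6% and 37.2% were higher and 31% and 38.2% lower. The low-voltage calcium channel CACNA1G rose by 3.94 (SE 0.35) in BE2C and 4.0 (SE 0.26) in Kelly with shAhR-2, and the neuronal sodium channel SCN3A by 2.60 (SE 0.093) and 1.2 (SE 0.062). SCN1A, another neuronal sodium channel, fell with shAhR-2 in both, by -2.57 (SE 0.33) and -1.26 (SE 0.086). These 3 genes were chosen after their values were seen. Of 24 accessory and potassium transport genes, 5 of 15 rose and 4 fell in BE2C with shAhR-1, and 9 rose and 4 fell with shAhR-2. In Kelly 6 of 19 were higher and 4 lower in the libraries labelled shAhR-1, and 11 rose and 6 fell with shAhR-2, beside the same shares of all genes. The adhesion protein AMIGO1 rose with shAhR-2 by 0.93 (SE 0.11) in BE2C and 1.16 (SE 0.058) in Kelly, and DPP6, a partner of KCND pores, fell by 0.90 on the log2 scale (SE 0.053) and by 1.2 (SE 0.035). SLC12A5, the neuronal potassium-chloride cotransporter, rose by 2.41 (SE 0.34) and 2.61 (SE 0.14). AMIGO1, DPP6 and SLC12A5, and ABCC8 and ABCC9 above, were not named by a rule set beforehand.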

How the data were processed

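RNA sequencing libraries of 2 neuroblastoma lines were deposited as 1 table of raw counts per gene and line. Per the submitters' processing notes, CASAVA 1.8.2 and STAR 2.7.9a were used with GRCh38.p7. For the counting tool, annotation and strand setting, the entry is: not given in the sources used here. Of the counts from 1 to 20 in a library, 68.3% to 72.5% were even, so each fragment may have been counted more than 1 time; halving was tried as an alternative.

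From the deposited counts, edgeR 4.0.16 in R 4.3.3 filtered low genes (filterByExpr), scaled libraries (TMM) and ran its quasi-likelihood test in 1 fit per line, and in 1 fit of all 18 libraries for differences between lines. Genes tested numbered 15732 in BE2C, 15871 in Kelly and 17136 across lines. P-values were adjusted by Benjamini-Hochberg over all genes tested, and an adjusted p under 0.05 was a call. CPM values are the counts scaled over all 18 libraries, and levels per kb use GENCODE v29 exon lengths (GRCh38). A group without a count was set at 3 counts over the group for bounds. If fragments were counted more than 1 time, that setting is too low and the bounds are too high.

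Members and lists were chosen with earlier results of these data known. Named members were those called with both shRNAs, alike or in opposite directions, those with the highest control level per kb and those with the largest differences between lines. KCNA2, KCNF1, KCNJ5, KCNJ6, KCNK9 and KCNMA1 fall outside that rule for some of their values and were chosen after their values were seen. Alternatives were other size factors, other filters, DESeq2 1.42.0, a replicate block, fits of only the groups compared, halved counts and leaving out each library. The fits were tested on simulated data. Values of some members are not reported here, while counts and sums cover all members. Depth limits low members: intervals and bounds cover counting error only.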

Additional observations from a re-analysis of the deposited data

Results flagged for a closer look

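The change with an shRNA differed between BE2C and Kelly for these members, by the test of the difference in all 18 libraries (edgeR, BE2C change less Kelly change, log2). With shAhR-1, KCND1 differed by 2.13, KCNH3 by 2.07, KCNN3 by 1.75 and KCNC4 by 1.47, and in the other direction KCNT1 by -1.95, KCNA3 by -1.18, KCNAB1 by -0.96 and KCNQ5 by -0.70. The Kelly side of these values rests on libraries labelled shAhR-1 in which AHR was not lower. With shAhR-2, KCND3 differed by 2.66, KCNN1 by 2.18, KCND1 by 2.05 and KCNIP3 by 1.97, and in the other direction KCNH8 by -1.83, KCNAB2 by -1.42 and KCNJ8 by -1.25. KCNH8 is close to 0 in Kelly, KCNT1 is low there, and KCND3, KCNIP3 and KCNN1 are low in BE2C.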

How the results depend on the processing

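Every count of called members stayed within 1.5 times its value under each alternative run. Without 1 library at a time, the number called ranged from 16 to 19 for BE2C shAhR-1 (19 with all libraries), 36 to 39 for BE2C shAhR-2 (38), 38 to 40 for the Kelly libraries labelled shAhR-1 (42) and 43 to 48 for Kelly shAhR-2 (48). Between shRNAs it was 29 to 32 in BE2C (32) and 42 to 46 in Kelly (46), for members called alike with both shRNAs 10 to 13 in BE2C (13) and 15 to 19 in Kelly (19), for differences between lines 21 to 26 with shAhR-1 (24) and 28 to 30 with shAhR-2 (29), and between control lines 55 to 58 (59). Of 170 pairs of a named member and a comparison, 15 that were called lost the call under some alternative and 0 reversed. Some pairs that were not called gained a call. These pairs cover the members named by the rule with KCNA2 and KCNK9. For KCNF1, KCNJ5, KCNJ6 and KCNMA1 the alternatives were not read gene by gene. Same-numbered libraries did not deviate together (r from -0.0306 to 0.0377 in BE2C and from -0.0171 to 0.0141 in Kelly), so the labels share only a number. A replicate block gave 17 and 37 calls for shAhR-1 and shAhR-2 in BE2C and 42 and 48 in Kelly. Depth limits members under about 1 CPM, whose calls rest on few counts.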
